A study of Rattus norvegicus with 6 samples.

Results

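Fibronectin and the matricellular proteins are secreted into the extracellular matrix (ECM) and tell cells about the matrix around them. Fibronectin is drawn out into fibrils by integrins at the cell surface. Matricellular proteins, among them periostin, the tenascins, the thrombospondins and the SPARC proteins, bind collagens, growth factors and integrins without forming the bulk of the matrix, and several are typical of fibrous connective tissue and of tissue under repair. In cartilage they stand beside type II collagen and aggrecan, and fibronectin is abundant in cultured chondrocytes.

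The 10 genes described here were Fn1 (fibronectin), Postn (periostin), Tnc and Tnn (tenascins C and W), Thbs1, Thbs2, Thbs3 and Thbs4 (thrombospondins), and Sparc and Sparcl1. They were chosen by gene symbol, each symbol matched 1 identifier, and they are 10 of the 18923 genes in the files. The RNA-Seq experiment used wild-type primary chondrocytes isolated from newborn female Sprague-Dawley rats at passage 1 or 2, with 3 CON samples in high-glucose DMEM with 10% serum and 3 RA samples that received 1 µM all-trans retinoic acid (RA) in the same medium for 24 h. The question was which genes RA changes in chondrocytes, and it was asked here of these 10 genes. The samples are described as independent, without a statement of which animals went into which sample, so the p-values measure the spread between these samples. Both groups were chondrocytes in monolayer culture, and a bulk sample cannot tell fewer cells of a type from less RNA per cell.

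Total counts ran from 30170909 to 38007486 in CON and from 29370025 to 30952882 in RA. CON sample 1 stood apart: compared with CON samples 2 and 3, its counts had chi-square values of 39.6 and 63.3 per gene, while the other pairs within a group had 6.53 to 8.25. Results that rest on it are given with and without it. The summed FPKM of 10 chondrocyte markers ran from 6308 to 8241 in CON and from 3895 to 4194 in RA. Of the 10, 8 were differentially expressed genes (DEGs, defined below), against 4.96% of all tested genes. Each of the 8 was lower in RA, with Clec3a, Matn3, Acan and Hapln1 changed most. Without Col2a1, the most abundant of the 10 markers, the sums were 1980 to 2183 and 872 to 913. Of 7 fibroblast and perichondrium markers none was a DEG, and 1, Pdgfra, named after its values were seen, passed the adjusted p with a log2 fold change of 0.44 (49.7 to 50.6 FPKM in CON, 65.5 to 70.6 in RA). The summed FPKM of the 7, mostly Col3a1, overlapped between CON (1527 to 1652) and RA (1610 to 1641). In the tendon, pericyte, skeletal muscle and macrophage lists 1 gene made up most of the sum, so these sums do not stand for the lists. The marker genes here that are not DEGs are named after their values were seen. Fmod, a DEG, had 389 to 395 FPKM in CON and 188 to 203 in RA, while the other 3 tendon markers summed to 19.1 to 27.5 and 26.5 to 29.3, none of them past the adjusted p and not all in 1 direction. Cspg4, a DEG, had 34.2 to 56.3 FPKM in CON and 28.2 to 31.3 in RA, while the other 2 pericyte markers overlapped (1.72 to 2.25 and 2.02 to 2.16). Des, not a DEG, had 4.43 to 5.65 FPKM in CON and 6.38 to 7.14 in RA, and the other 4 muscle markers 0.154 to 0.351 and 0.574 to 0.630, among them Myod1, a DEG and higher in RA on 4 to 7 reads per CON library and 17 to 25 per RA library. Cd68, not a DEG, had 0.912 to 1.15 FPKM in CON and 1.25 to 1.30 in RA, and the other 4 macrophage markers overlapped (0.0637 to 0.178 and 0.128 to 0.237). With 1 sample left out, the calls of Cspg4 and Myod1 held in 1 and 3 of 6 fits. The part of these markers in the results below was not tested. Osteoblast markers summed to 0.971 to 2.62 against 1.90 to 2.32 FPKM. Dmp1, the osteoblast marker whose reads did not overlap (2 to 4 per CON library, 5 to 27 per RA library), was below the filter on low counts. Run without that filter, DESeq2 gave it a log2 fold change of 2.61 (adjusted p = 0.0411) and edgeR 2.57 (adjusted p = 0.0533). In edgeR with 1 sample left out, Dmp1 passed the filter in 4 fits and was a DEG in 2 of them. Endothelial markers summed to 0.0302 to 0.178 against 0.0627 to 0.145 FPKM. The endothelial marker Emcn had no count in any sample.

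RefSeq promoter sequences (assembly GRCr8) were found for 8 of the 10 genes, and not for Fn1 and Thbs2. The 250 bases before the start site are shown for Postn and Thbs1, the members whose lower levels in RA passed the adjusted p described below, and for Tnc, whose level differed least. They were searched on both strands for AGGTCA (a half-site of retinoic acid receptors), TGANTCA (AP-1), TATAAA (the core promoter box that binds TBP), GGGCGG (GC box) and GGAATG (TEAD), and the capitals mark every match to any of these.
Postn, chr2:140677811-140678060, + strand: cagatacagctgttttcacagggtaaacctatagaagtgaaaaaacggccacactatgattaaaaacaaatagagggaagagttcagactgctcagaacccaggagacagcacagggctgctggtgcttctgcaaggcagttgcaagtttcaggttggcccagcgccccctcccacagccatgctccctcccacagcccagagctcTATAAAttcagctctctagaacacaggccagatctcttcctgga
Thbs1, chr3:125510000-125510249, + strand: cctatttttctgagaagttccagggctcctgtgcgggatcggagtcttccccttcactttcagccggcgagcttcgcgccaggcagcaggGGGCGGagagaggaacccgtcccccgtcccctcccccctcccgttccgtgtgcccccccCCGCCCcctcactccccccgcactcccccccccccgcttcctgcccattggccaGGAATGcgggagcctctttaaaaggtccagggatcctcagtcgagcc
Tnc, chr5:82476132-82476381, - strand: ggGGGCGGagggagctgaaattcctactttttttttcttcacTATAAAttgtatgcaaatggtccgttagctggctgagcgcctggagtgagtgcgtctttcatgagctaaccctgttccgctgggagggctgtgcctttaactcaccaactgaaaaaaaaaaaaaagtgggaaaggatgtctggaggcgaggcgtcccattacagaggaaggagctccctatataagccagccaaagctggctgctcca
The Postn window held TATAAA 44 bases before the start, a motif found in 12.9% of the 33469 promoters of this length. The Thbs1 window held 2 GC boxes (30.5% of promoters hold one) and a TEAD letter match 47 bases before the start (12.1%), and the Tnc window a GC box and, 208 bases before the start, TATAAA. Only exact letters were counted, so tatataag near the end of the Tnc window is unmarked. The GC content was 67.6% for Thbs1, 50.8% for Postn and 49.6% for Tnc, against a median of 51.2% over all promoters. None of the 8 windows held the AGGTCA or the TGANTCA letters, which occurred in 14.1% and 6.34% of all promoters, and this says only that these letters are not in these windows.

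These genes spanned a very wide range of levels, from fibronectin among the most abundant transcripts of the cells to Sparcl1 with few reads per library. On the FPKM scale, which divides counts by gene length and by the total count, the order was the same in CON and RA: Fn1, Sparc, Thbs1, Thbs2, Tnc, Tnn, Thbs3, Thbs4, Postn and Sparcl1. Neighbours in this order did not overlap, with the exception of Thbs4 and Postn in CON, whose samples ran from 12.0 to 14.0 and from 10.9 to 14.1 FPKM. In RA Thbs4, at 9.97 to 11.2 FPKM, lay above Postn, at 4.64 to 5.32. By mean FPKM among all genes, Fn1 ranked 6 in CON and 2 in RA, Sparc 9 and 8, Thbs1 44 and 76, and Postn 5378 and 8333.

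**Figure D1:**
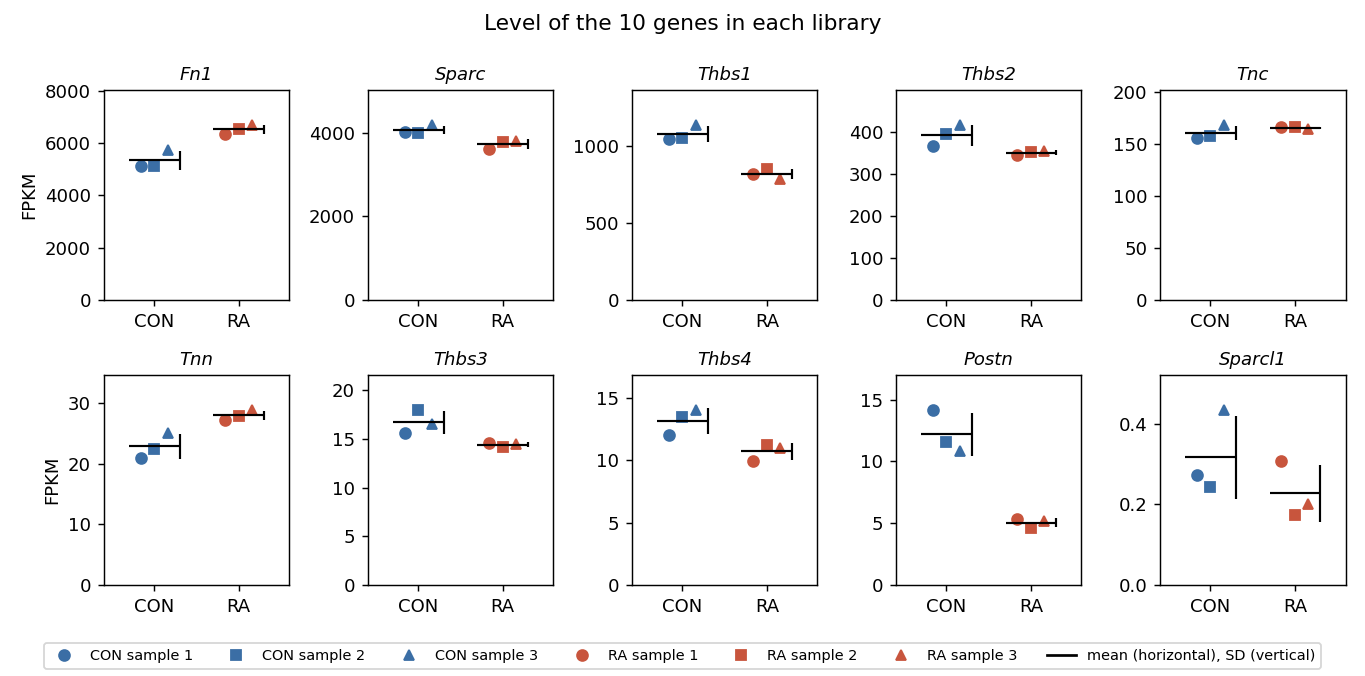
FPKM of each gene in each of the 6 libraries, one panel per gene with its own axis from 0, with CON in blue and RA in red, marker shapes for the sample number, a horizontal line at the group mean and a vertical line for the SD (n = 3). Postn is separated most clearly (10.9 to 14.1 FPKM in CON, 4.64 to 5.32 in RA), while Tnc and Sparcl1 overlap between the groups.

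The comparison of RA with CON was made with edgeR's quasi-likelihood test on the counts of all 13438 genes that passed its filter on low counts, and all 10 genes passed. A gene was a DEG where its adjusted p (Benjamini-Hochberg) was below 0.05 and its log2 fold change exceeded 0.58 in size. Of the 10 genes, 1 was a DEG, Postn, which was lower in RA, against 4.96% of all tested genes that were DEGs (2.67% higher and 2.29% lower in RA). Another 2 genes, Thbs1 (lower) and Fn1 (higher), had an adjusted p below 0.05 with a smaller fold change, which makes 3 of 10 on the adjusted p alone against 9.82% of all tested genes. The FPKM of 8 of the 10 genes did not overlap between the groups, against 32.2% of all tested genes. The median log2 fold change was -0.20, with 7 genes below and 3 above 0, beside a median of -0.0057 over all tested genes.

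**Figure D2:**
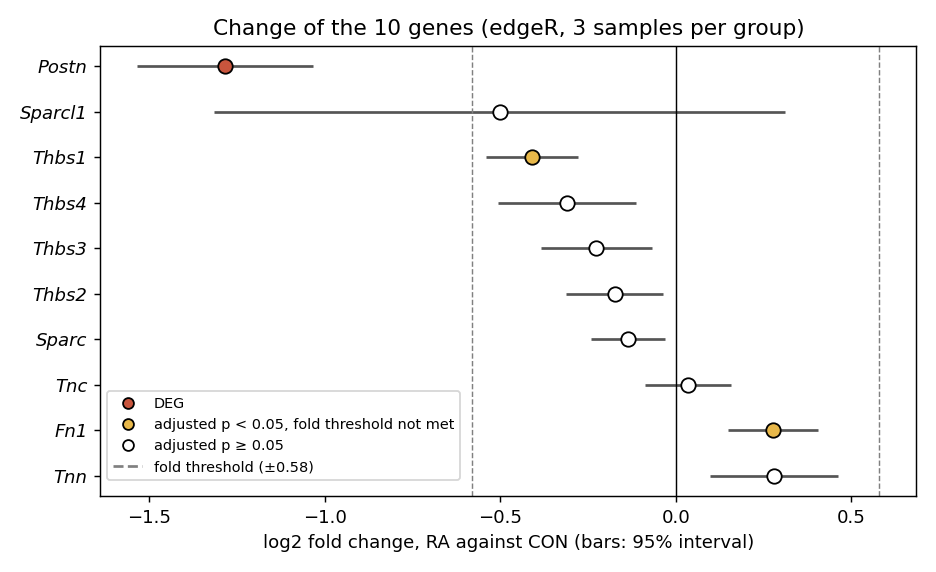
Log2 fold change (RA against CON) of each gene from the edgeR fit, with its 95% interval, and dashed lines at the fold threshold of 0.58 in both directions. Postn alone lies beyond a threshold with its whole interval (-1.53 to -1.04), Thbs1 and Fn1 lie on opposite sides of 0, and the interval of Sparcl1 (-1.32 to 0.31) is the widest.

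Periostin, a protein with fasciclin domains that binds type I collagen, fibronectin and tenascin-C and is known from periosteum, perichondrium and tendon, changed most. Postn (ENSRNOG00000012660) had 14.1, 11.6 and 10.9 FPKM in CON samples 1, 2 and 3 and 5.32, 4.64 and 5.15 FPKM in RA samples 1, 2 and 3. The highest RA sample was thus below the lowest CON sample by a wide margin. The means were 12.2 ± 1.72 and 5.04 ± 0.355 FPKM (SD, n = 3 each). In the edgeR fit Postn was 2.44-fold lower in RA, which is -1.28 on the log2 scale with a standard error of 0.109 (adjusted p = 2.31e-04). These levels rest on 1126 to 1400 reads per CON library and 440 to 515 per RA library. Leaving out any 1 sample kept the log2 fold change of Postn between -1.35 and -1.17, and it was a DEG in all 6 of these fits.

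Thrombospondins are oligomeric calcium-binding glycoproteins: thrombospondins 1 and 2 form trimers, inhibit the growth of blood vessels and bind CD47, and thrombospondin 1 can also activate latent TGF-β, while thrombospondins 3 and 4 form pentamers like COMP, their relative in cartilage. Each of the 4 genes had lower FPKM in every RA sample than in any CON sample, and 1 of them passed the adjusted p. Thbs1 (ENSRNOG00000045829) had 1040.3, 1049 and 1131 FPKM in CON samples 1, 2 and 3 and 817, 849 and 782 FPKM in RA samples 1, 2 and 3. The edgeR fit gave a 1.33-fold lower level in RA, which is -0.41 on the log2 scale with a 95% interval of -0.54 to -0.28 (adjusted p = 0.00299). The interval ends short of the threshold of 0.58, so Thbs1 was lower in RA but was not a DEG. With each sample left out its adjusted p ranged from 3.59e-05 to 0.0302 in edgeR's test and its log2 fold change from -0.44 to -0.36.

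The other 3 thrombospondin genes had smaller differences in the same direction, which did not pass the adjusted p in edgeR's test of all 6 samples. For Thbs2 (ENSRNOG00000010529) the CON samples had 366, 395 and 416 FPKM and the RA samples 344, 353 and 355 FPKM. Its log2 fold change was -0.17 (95% interval -0.31 to -0.035, adjusted p = 0.124, edgeR). Thbs3 (ENSRNOG00000059903) had 15.6, 17.9 and 16.6 FPKM in CON and 14.5, 14.1 and 14.5 FPKM in RA. Its log2 fold change was -0.23 (95% interval -0.38 to -0.068, adjusted p = 0.0841, edgeR). For Thbs4 (ENSRNOG00000012471), a thrombospondin of tendon and muscle, the values were 12.0, 13.5 and 14.0 FPKM in CON and 9.97, 11.2 and 11.003 FPKM in RA. Its log2 fold change was -0.31 (95% interval -0.51 to -0.11, adjusted p = 0.0605, edgeR), and its adjusted p in DESeq2 was 0.0346. In limma on log2(FPKM + 0.1) and log2(FPKM + 1) the adjusted p was 0.0882 and 0.0919. With any 1 sample other than CON sample 1 left out, it ran from 0.120 to 0.213 in edgeR's test. Thbs2 and Thbs4 each had their lowest CON value in CON sample 1, and so did Thbs3. Without that sample these 3 genes passed the adjusted p, together with Sparc and Tnn, so that 8 of the 10 genes did, against 16.5% of all genes tested in that fit. None of the 8 except Postn was a DEG there, since their fold changes stayed small.

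Fibronectin, the ligand of integrin α5β1 and a scaffold on which collagens, periostin and tenascin-C are laid down, was the most counted gene in all 6 libraries. Fn1 (ENSRNOG00000014288) took 4.32%, 4.30% and 4.83% of all counted reads in CON samples 1, 2 and 3 and 5.34%, 5.50% and 5.61% in RA samples 1, 2 and 3. The groups did not overlap. Its FPKM was 5335 ± 357 in CON and 6524 ± 162 in RA (3 samples each, SD). In the edgeR fit Fn1 was 1.21-fold higher, which is 0.28 on the log2 scale with a 95% interval of 0.15 to 0.40 (adjusted p = 0.0161). The CON values were 5141, 5117 and 5747 FPKM and the RA values 6353, 6544 and 6676 FPKM. The adjusted p of Fn1 went above 0.05 in edgeR's test when CON sample 2 (0.069), RA sample 2 (0.089) or RA sample 3 (0.104) was left out. In limma fits on log2(FPKM + 0.1) and log2(FPKM + 1) it was 0.0814 and 0.0923. Splice forms of fibronectin, such as those with the EDA segment, are summed in this count.

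**Figure D3:**
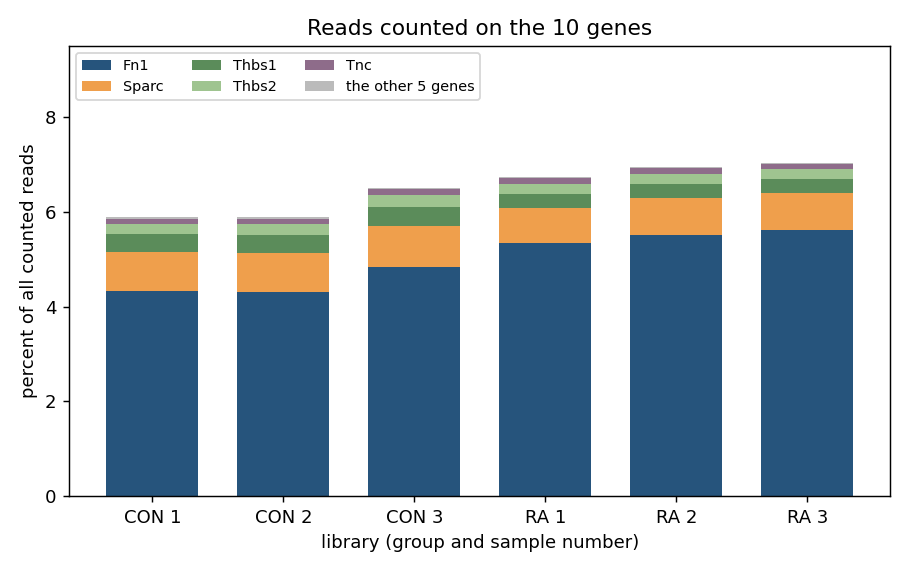
Stacked bars from 0 of the percent of all counted reads that fell on each of the 5 most counted genes of the group and on the other 5 together, for each library. Fn1 makes up 73.1% to 74.3% of these reads in CON and 79.2% to 79.7% in RA, and the whole bars reach 5.88% to 6.50% in CON and 6.73% to 7.04% in RA.

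The other very abundant gene of the group was Sparc, whose product, also called osteonectin, binds collagen and is made by bone, cartilage and fibroblasts alike. Sparc (ENSRNOG00000012840) had 4024, 4001 and 4180 FPKM in CON and 3607, 3790 and 3815 FPKM in RA. The RA samples lay below the CON samples by a small margin. Its log2 fold change was -0.14 (95% interval -0.24 to -0.030, adjusted p = 0.116, edgeR). Sparcl1 (ENSRNOG00000015093), its relative known as hevin, was barely expressed, with 20 to 45 reads per CON library and 14 to 25 per RA library. Its FPKM was 0.274, 0.242 and 0.433 in CON and 0.308, 0.174 and 0.201 in RA, the groups overlapped, and no difference was detected (log2 fold change -0.50, 95% interval -1.32 to 0.31, adjusted p = 0.433, edgeR). With 1 sample left out the log2 fold change of Sparcl1 ran from -0.77 to -0.18.

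Tenascins C and W are hexameric glycoproteins that modulate the adhesion of cells to fibronectin. Tenascin-C appears in developing cartilage, tendon and wounds, and tenascin-W in developing bone and periosteum. Tnc (ENSRNOG00000058645) had 155, 158 and 168 FPKM in CON and 166, 166 and 165 FPKM in RA. The RA samples fell inside the range of the CON samples. The log2 fold change was 0.034 (95% interval -0.089 to 0.16, adjusted p = 0.746, edgeR), so that the interval excludes a change of the size of the threshold in either direction. Tnn (ENSRNOG00000002548) had 21.0, 22.4 and 25.0 FPKM in CON and 27.2, 27.9 and 28.8 FPKM in RA. All 3 RA samples were above all 3 CON samples. The log2 fold change was 0.28 (standard error 0.0795, 95% interval 0.097 to 0.46, adjusted p = 0.0653, edgeR), as large as that of Fn1, with an adjusted p that did not pass. It was 0.0231 in DESeq2, 0.0442 in edgeR scaled by library totals alone, and between 0.0152 and 0.235 in edgeR with 1 sample left out, below 0.05 when that was CON sample 1 or CON sample 3.

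The genes that surround this group were read off the same fit in 4 lists. Of 13 relatives (fasciclin, thrombospondin, tenascin and SPARC families and other adhesive proteins), 11 were in the files and 7 passed the filter. Among the 7, 2 were DEGs, both lower in RA, against 4.96% of all tested genes (2.29% lower). Tgfbi, the closest relative of periostin, had 187, 194 and 202 FPKM in CON and 121, 128 and 124 FPKM in RA, and edgeR fitted a log2 difference of -0.66 (adjusted p = 3.07e-04). Comp, the thrombospondin of the cartilage matrix, had 321, 417 and 421 FPKM in CON and 231, 253 and 268 FPKM in RA, and edgeR fitted a log2 difference of -0.64 (adjusted p = 0.00855). The call of Tgfbi held whichever sample was left out. That of Comp was lost without CON sample 3 (-0.56) or RA sample 1 (-0.57, adjusted p = 0.0506, edgeR). Without CON sample 1 the list had 5 DEGs, the further ones, named after their values were seen, being Smoc1 (-0.65), Spock2 (-0.99) and Tnr (1.15), against 5.54% of all genes tested in that fit. When CON sample 3 or RA sample 1 was left out it had 1. The median log2 fold change of the 7 genes was -0.57.

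Receptors of these proteins on the cell surface are mainly integrins, with CD47, syndecan-4 and LRP1 beside them. Of 14 tested receptor genes 2 were DEGs, 1 in each direction, against 4.96% of all tested genes, and the median was 0.15. Itga8, the partner of integrin β1 in a receptor for fibronectin, tenascins and nephronectin, had 3.70, 3.11 and 3.10 FPKM in CON and 8.82, 9.03 and 7.98 FPKM in RA, and edgeR fitted a log2 difference of 1.37 with a standard error of 0.0910 (adjusted p = 7.66e-05). Itga9, the α chain of a receptor for tenascin-C and osteopontin, had 3.48, 3.92 and 3.51 FPKM in CON and 1.94, 1.96 and 1.69 FPKM in RA, and edgeR fitted a log2 difference of -0.98 with a standard error of 0.116 (adjusted p = 0.00136). Both calls held whichever sample was left out. A further 2 genes passed the adjusted p alone, and they are named after their values were seen: Itgav, the αV chain that binds periostin and fibronectin, with a log2 fold change of 0.29, and Itgb1, the β1 chain shared by most of these receptors, with 0.27.

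Of 12 tested matrix partners, which process, crosslink or bind the proteins of the group, 1 was a DEG, against 4.96% of all tested genes. The median was 0.080. Lox, a lysyl oxidase that crosslinks collagen and whose activation periostin assists, had 308, 293 and 282 FPKM in CON and 203, 192 and 185 FPKM in RA, and edgeR fitted a log2 difference of -0.62 (adjusted p = 2.76e-04), and its call held with any 1 sample left out. The 2 genes past the adjusted p alone, named after their values were seen, were higher: Ltbp1, which ties latent TGF-β to fibronectin, with 0.52, and Fbln1, a fibulin that binds fibronectin, with 0.42.

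The last list held 10 genes known to respond to TGF-β or to the YAP and SRF pathways, which also act on Thbs1, Tnc and Postn in other cells. Of these 10, 2 were DEGs, against 4.96% of all tested genes, and the median was 0.14. Acta2, smooth muscle actin, had 103, 104 and 115 FPKM in CON and 57.6, 65.4 and 59.5 FPKM in RA, and edgeR fitted a log2 difference of -0.83 (adjusted p = 4.03e-04). Smad7, the inhibitory Smad that TGF-β induces, had 3.60, 4.86 and 4.78 FPKM in CON and 7.58, 6.95 and 6.68 FPKM in RA, and edgeR fitted a log2 difference of 0.66 (adjusted p = 0.0109). The call of Smad7 was lost without CON sample 1 (log2 difference 0.54) or RA sample 1 (0.62, adjusted p = 0.0580, edgeR). Ccn2, a matricellular protein of the CCN family, passed the adjusted p with a log2 fold change of 0.55, short of the fold threshold, and is named after its value was seen. The DEGs of this list thus lay in both directions.

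**Figure D4:**
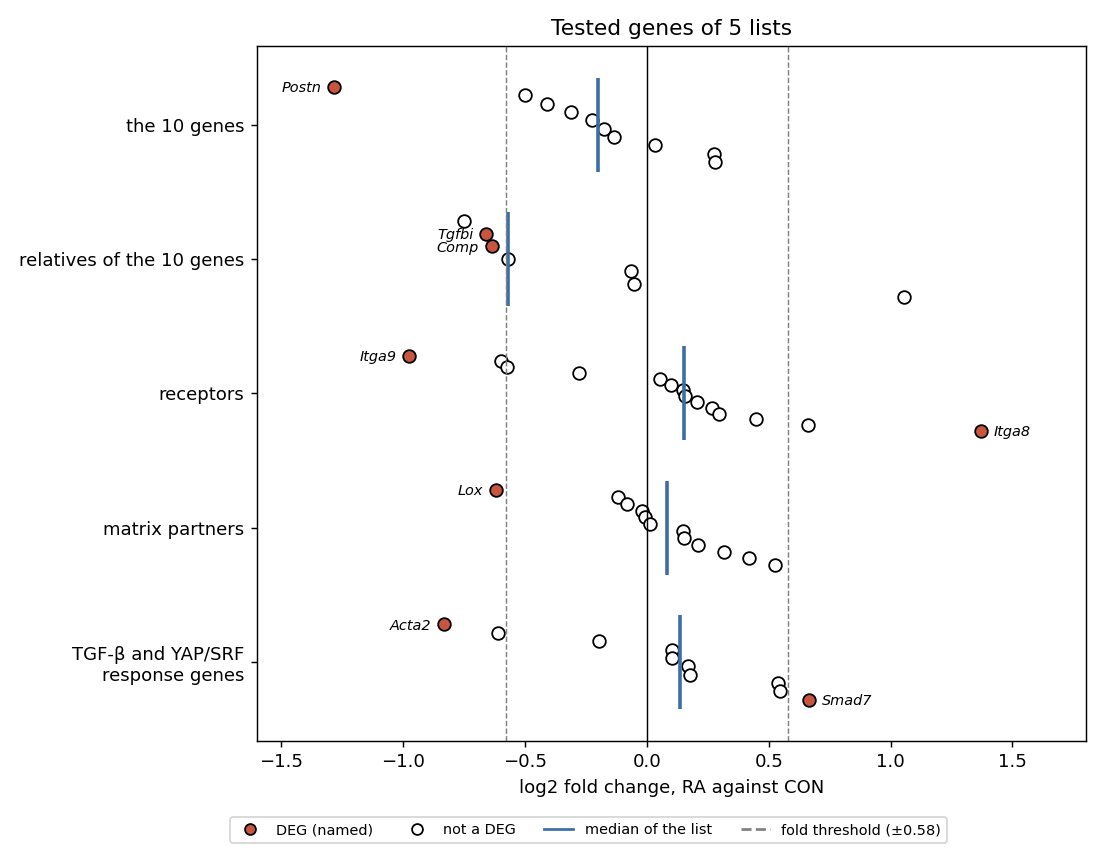
Log2 fold change (RA against CON) of every tested gene in the group and in the 4 lists around it, with DEGs in red and named, medians as blue lines and the fold threshold as dashed lines. Postn, Tgfbi, Comp, Itga9, Lox and Acta2 lie beyond the lower threshold as DEGs, Itga8 and Smad7 beyond the upper one.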

How the data were processed

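Poly(A) RNA of 3 CON and 3 RA samples was sequenced on 1 library each, and groups and sample numbers came from the sample titles. The authors deposited for each library raw, unscaled gene counts in whole reads and beside them an FPKM value, which scales a count by gene length and by the total count. Per the labels the processing named HISAT2, HTSeq 0.13.5 and Rnor_6.0; the annotation, the strand setting and the treatment of shared reads are not given in the sources used here, so overlapping genes and antisense reads cannot be told apart. The counts were tested with edgeR 4.0.16 (glmQLFit and glmQLFTest, TMM, filterByExpr with a minimum count of 10, no covariates) in R 4.3.3, with p-values adjusted by Benjamini-Hochberg over 13438 genes. Standard errors and 95% intervals came from the F statistic and its degrees of freedom. The members and the gene lists were chosen with earlier results of these data known. Genes were named by rule: the 10 genes, and of each list the DEGs (at most the 4 changed most). Other genes were named after their values were seen. Alternatives were DESeq2 1.42.0, other size factors, library totals alone, no filter, limma 3.58.1 on log2 FPKM, other call rules, a replicate block and each sample left out. Scripts were tested on simulated counts. Of the gene lists, Tnxb, Spon2, Cd36, Col1a2, Ly6a, Pecam1 and Rgs5 were not analysed here. No reads for a gene would allow up to 3, or 0.0789 to 0.102 CPM, by counting error only. The promoter windows come from GRCr8, another build than that of the counts.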

Additional observations from a re-analysis of the deposited data

How the results depend on the processing

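Each of the 10 genes kept its direction and its side of the DEG threshold in all 13 alternatives. The number of DEGs among all genes was 667, and 434 in limma on log2(FPKM + 1), 1319 without the fold threshold and 1017 with an unadjusted p. Without the fold threshold, 3 of the 10 genes, 4 of 14 receptors and 3 of 12 matrix partners were counted. The share of all tested genes there was 9.82%. With an unadjusted p, 4 of 7 relatives were counted, against 1017 of the 13438 tested genes. The count of the 10 genes past the adjusted p alone, an alternative chosen after seeing the data, was 5 in DESeq2 (10.8% of all genes with an adjusted p) and between 2 and 8 with 1 sample left out. The 8 were found without CON sample 1 (16.5% of all genes), and the 2 when RA sample 2, RA sample 3 or CON sample 2 was left out (4.83% to 5.30%). Relatives ranged from 1 to 5 DEGs and the TGF-β and YAP/SRF genes from 1 to 2 with 1 sample left out. With the replicate number as a block there were 684 DEGs, and on the adjusted p alone 5 of the 10 genes passed, Tnn and Thbs4 being added, against 11.9% of all genes. In that fit 3 of the 14 receptors were DEGs, against 684 of the 13438 tested genes. Stab1 (0.70, adjusted p = 0.0448, edgeR), named after its value was seen, was the added receptor. Same-numbered samples deviated together with correlations of 0.093, -0.012 and 0.012, so the numbers were not taken as pairs. Among the 10 genes the interval was widest for Sparcl1, which had the fewest reads.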

Other observations

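Ratios between members within a library do not depend on the scaling of that library, and these were computed after the levels were seen. The FPKM of Fn1 was 4.94, 4.88 and 5.08 times that of Thbs1 in CON and 7.78, 7.71 and 8.54 times in RA. Against Sparc the factor was 1.28, 1.28 and 1.37 in CON and 1.76, 1.73 and 1.75 in RA. Against Postn it was 364, 443 and 529 in CON and 1194, 1411 and 1296 in RA. The groups did not overlap in any of these ratios. Thbs1 made up 71.1% to 72.6% of the summed thrombospondin FPKM in CON and 67.2% to 69.2% in RA, and that sum ran from 1434 to 1578 in CON and from 1162 to 1228 in RA. The ratio of Tnc to Tnn was 7.41, 7.02 and 6.71 in CON and 6.11, 5.94 and 5.72 in RA, again without overlap, whereas that of Thbs4 to Thbs3 was 0.771, 0.754 and 0.846 in CON and 0.686, 0.793 and 0.758 in RA, with overlap.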
